A study of Homo sapiens with 12 samples.

Results

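Newly made RNA was set against total RNA in control (Ctrl) HCT116 cells, an established human colorectal carcinoma line used at passages under 15. The comparison used 6 of the 12 libraries of the series: 3 of 4sU-seq and 3 of RNA-seq from Ctrl cells. In 4sU-seq, cells take up 4-thiouridine (4sU), and the RNA that carries it is tagged with biotin and pulled down. Here the pulse lasted 10 min at 500 µM, and 300 µg of RNA entered the tagging. The labels describe each 4sU-seq replicate as a separate seeding, give no such account of the RNA-seq libraries, and do not say whether the assays shared cultures or what the Ctrl cells went through beside the knockout line. p-values therefore measure the spread between these libraries. The other 6 libraries came from cells with a knockout (KO) of PPM1G, a nuclear protein phosphatase, and serve here only as a second look at the same ratio.

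The level of an RNA is set by how fast it is made and how fast it is lost. A short 4sU pulse samples synthesis, and it still holds introns that have not been spliced out, while total RNA is dominated by the spliced, accumulated product. For RNAs made at the same rate, a high ratio of labelled to total RNA is expected of one that turns over quickly and a low ratio of one that lasts. The ratio is a proxy only, since it also moves with what each table counts.

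The tables held 56104 gene IDs, and each library was scaled to its own total of gene counts (CPM), with ERCC counts left out. The 4sU-seq Ctrl libraries held 83785534 to 101884166 gene counts and the RNA-seq Ctrl libraries 34042299 to 42479828, so that 3 counts were worth 0.0294 to 0.0358 CPM and 0.0706 to 0.0881 CPM. Such floors cover counting error only. ERCC spike-ins, synthetic RNAs added to every library, came to 0.0371% ± 0.0077 (SD, n = 3) of counts for 4sU-seq, while for RNA-seq they came to 0.524% ± 0.0422 (SD, n = 3). No amount is stated for it, so each table kept its own scale. Higher, lower and fold below hold on those scales only. Scaled to ERCC counts instead, the median log2 difference was 4.00 and 81.4% of calls were higher in 4sU-seq. Of 8 epithelial markers, 7 were at 1 CPM or more in RNA-seq, with a summed level of 2754 to 2977 CPM. In RNA-seq the 5 leukocyte markers summed to 0.142 to 0.206 CPM, the 3 endothelial markers to 0.147 to 0.398 CPM and the 5 fibroblast markers to 3.88 to 5.97 CPM. In 4sU-seq the leukocyte markers summed to 0.149 to 0.215 CPM, the endothelial markers to 5.53 to 6.39 CPM, most of it PECAM1 at a mean of 4.13 CPM, and the fibroblast markers to 4.72 to 5.87 CPM. PPM1G stood at 236, 268 and 222 CPM in the Ctrl 4sU-seq libraries and at 311, 279 and 300 CPM in Ctrl RNA-seq, against 102 to 151 CPM and 102 to 106 CPM in the KO libraries.

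For each gene, the log2 ratio is that of the mean 4sU-seq CPM over the mean RNA-seq CPM, with 0.5 CPM added to each, which understates the ratio of low genes. Of 23830 genes tested with edgeR's quasi-likelihood test with Benjamini-Hochberg adjustment, 20954 (87.9%) passed an adjusted p of 0.05. The 4sU-seq level was the higher in 11096 (46.6%) and the lower in 9858 (41.4%). So a call is the rule here, and a list is described by its median and by its split. The median log2 ratio was 0.13 over all genes tested, with quartiles of -0.81 and 1.0. 10838 genes lay more than 1 log2 unit from that median. The Ctrl libraries of the assays did not overlap in 21057 genes (88.4%), with 4sU-seq above in 11194 (47.0%) and below in 9863 (41.4%).

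**Figure D1:**
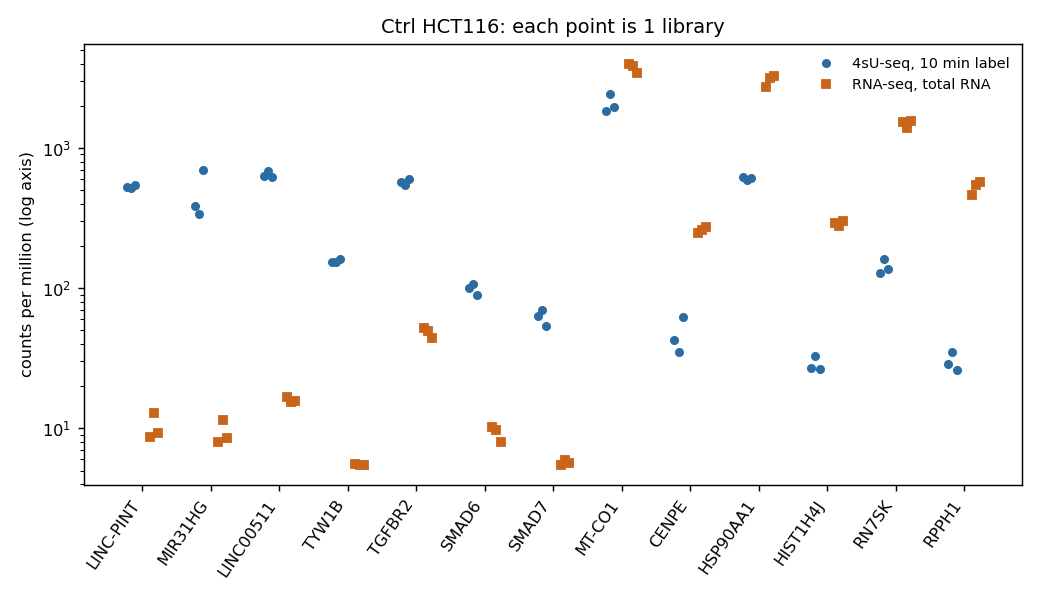
CPM (log axis) of 13 genes in each Ctrl library, 4sU-seq as circles and RNA-seq as squares, 3 libraries each. For every gene drawn the 3 libraries of an assay lie apart from the 3 of the other. LINC-PINT to SMAD7 are higher in 4sU-seq, and MT-CO1 to RPPH1 are higher in RNA-seq.

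How the tables were counted shows in the lowest ratios, and it has to come before the biology. The 12 protein-coding genes with the lowest ratios ran from CFL1 at -7.05 to RAB1B at -4.62. Among them were TUBA1C, MRPL4, IER5L, TRIM59, RPL5, COX6A1, EI24, MALT1 and ZNF503. CFL1, the actin-severing protein cofilin, was at 3.27, 4.08 and 3.06 CPM in 4sU-seq and at 506, 530 and 545 CPM in RNA-seq. All 12 have less than 90% of their span, from first to last annotated base, outside other genes, with a median of 8.0%. In CFL1 (chromosome 11, 65823022 to 65862026 in hg38, minus strand) that share is 27.8%. Over the tables, 762 genes at 5 CPM or more in RNA-seq lie wholly inside the spans of other genes on either strand, and 726 of them (95.3%) had at most 3 counts over the 3 Ctrl 4sU-seq libraries. Among 3703 genes as abundant but free of any neighbour in their span, 8 (0.2%) did. Of 449 nested genes with under 10% of their span inside genes of their own strand, 431 (96.0%) were at that floor. RN7SL1 and RN7SL2, RNAs of the signal recognition particle, had no count in 4sU-seq against means of 6754 and 5276 CPM in RNA-seq. With 3 counts in the shallowest 4sU-seq library as the floor, their counts were at least 188629-fold and 147362-fold lower there. Neither gene has any free span, so these folds describe counts and cannot bound the RNA.

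The mirror image was found in RNA-seq for exons. Of 41 genes at 5 CPM or more in 4sU-seq whose exon bases all lie inside exons of other genes, 30 (73.2%) had at most 3 counts in RNA-seq, against 19 of 6076 (0.3%) whose exons are free. The 4sU-seq counts thus behaved as counts over whole gene bodies and the RNA-seq counts as counts over exons. In both tables, counts were near absent where genes share bases. Values are therefore also given for the 12681 tested genes of which at least 90% of the span and of the exon bases lie outside every other gene of the tables, called free of overlap below. Of these, 10747 (84.7%) were called, 7179 (56.6%) higher and 3568 (28.1%) lower in 4sU-seq. Their median ratio was 0.44, against 0.13 over all genes tested.

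**Figure D2:**
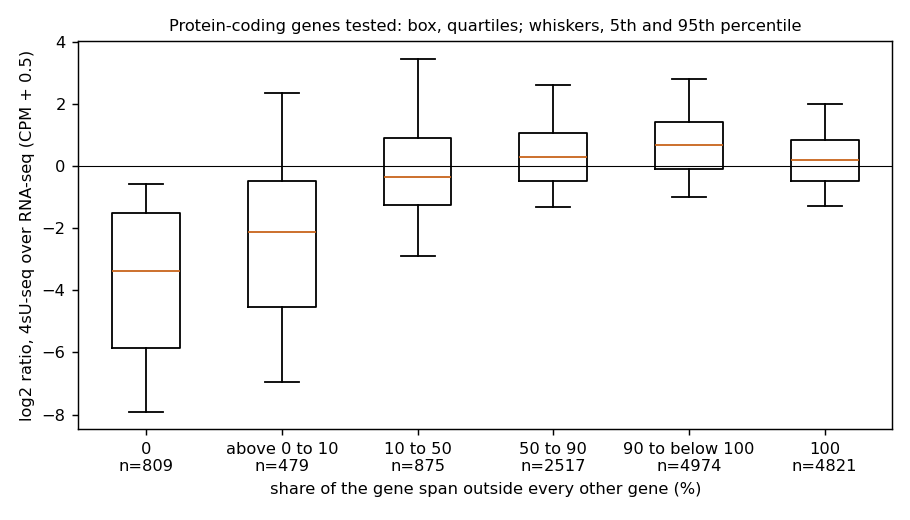
Log2 ratio of 4sU-seq over RNA-seq for protein-coding genes by the share of their span outside other genes, with the number of genes under each box. Line, box and whiskers mark the median, the quartiles and the 5th and 95th percentiles. The median is -3.39 where no base of the span is free and 0.20 where the whole span is free.

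Gene span was the other axis along which the ratio was ordered. Among protein-coding genes free of overlap, the median ratio was -0.85 in 339 genes under 3 kb, -0.38 in 1206 genes of 3 to 10 kb and 0.06 in 2460 genes of 10 to 30 kb. It was 0.53 in 3075 genes of 30 to 100 kb, 1.05 in 1605 genes of 100 to 300 kb and 1.57 in 545 genes over 300 kb. In the longest class 526 genes were called higher in 4sU-seq and 6 lower. Across 9230 genes Spearman's rho with span was 0.53, and it was -0.56 with the share of the span that is exon. These are descriptions across genes of the same 6 libraries. The order turned round once 4sU-seq counts were divided by the free span and RNA-seq counts by the free exon length. On that length-scaled ratio the median fell from -1.09 under 3 kb to -4.08 over 300 kb, with a rho of -0.56. Genes are therefore compared below also with protein-coding genes of their own span class, as the difference from the median of that class, called the span-matched ratio.

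**Figure D3:**
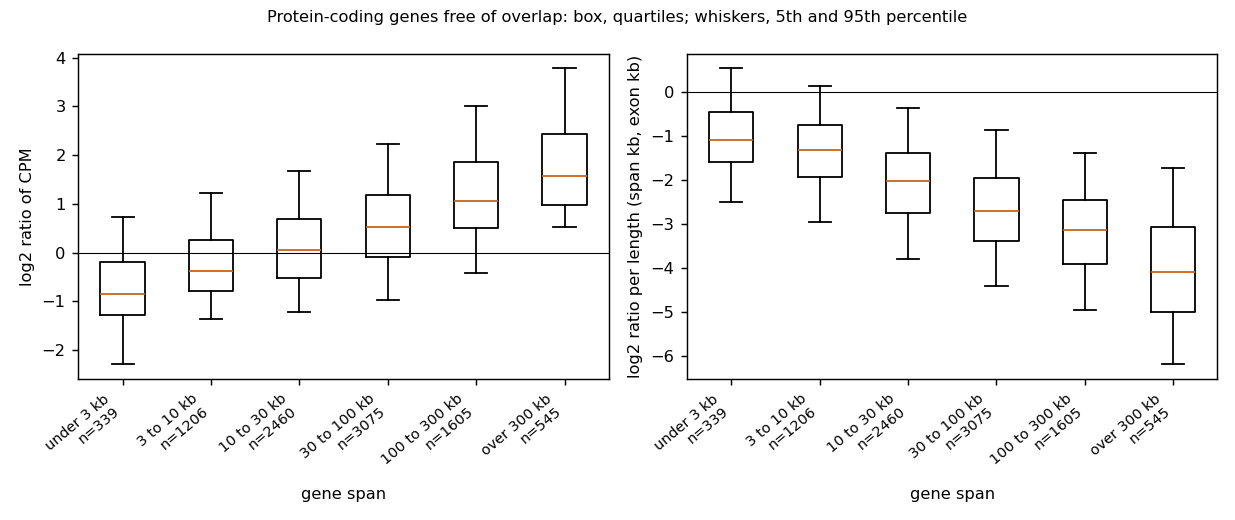
Protein-coding genes free of overlap by span class: left, log2 ratio of CPM, with medians from -0.85 to 1.57; right, the ratio with 4sU-seq per kb of span and RNA-seq per kb of exon, with medians from -1.09 to -4.08. Boxes show quartiles and whiskers the 5th and 95th percentiles; the left ratio climbs with span and the right one falls.

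The highest protein-coding ratios belonged mostly to long genes. The 12 highest had ratios of 4.35 to 7.40, and the 11 of them with coordinates had a median span of 300.7 kb. LINC00854, which the tables type as protein-coding (chromosome 17, 43216941 to 43305397), stood at 369, 356 and 329 CPM in 4sU-seq and at 1.22, 1.91 and 1.62 CPM in RNA-seq, a ratio of 7.40. It was followed by RBM14-RBM4, a read-through of neighbouring genes with 37.8% of its span free, SMAP1 (5.47), with 45.5% of its exon bases free, the glutamate receptor GRIK4 (5.13), STEAP1B (4.91) and PTPRN2 (4.81). TYW1B (4.71), RAD51B of homologous recombination (4.66), the glutamate receptor GRID1 (4.55), NOS1AP (4.55), CCT6B (4.53) and FGGY (4.35) completed them. TYW1B was at 154, 153 and 163 CPM in 4sU-seq and at 5.53, 5.49 and 5.52 CPM in RNA-seq. That no 4sU-seq library of these genes overlapped an RNA-seq library was a condition of their choice. On the list of common fragile site genes and other very long genes, all 39 tested members were higher in 4sU-seq, with a median ratio of 2.25. They ranged from NRG1 (0.75) to RAD51B, with the fragile site gene FHIT at 4.24. Their median span-matched ratio was 0.80 over 29 members free of overlap, and on the length-scaled ratio the list lay at -2.211 against the median of all genes free of overlap.

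Within span classes, TGFBR2, SMAD6 and SMAD7 were among the protein-coding genes with the highest ratios. Among 5351 called protein-coding genes free of overlap at 5 CPM or more in both assays, those farthest above their class included LRP5L (span-matched 3.72), TYW1B (3.66), PBX4 (3.19), TGFBR2 (3.0), GRID1 (2.98), CHCHD6 (2.89), NINL (2.89), GARNL3 (2.87), SMAD7 (2.81), SMAD6 (2.81) and PRELID3A (2.74). This ranking, like the one of the lowest genes below, was chosen after the values were seen. TGFBR2, the type 2 receptor of TGF-beta, known to be mutated in this line, was at 569, 542 and 598 CPM in 4sU-seq and at 52.3, 49.9 and 44.5 CPM in RNA-seq. Its edgeR log2 difference was 3.54 (SE 0.10, adjusted p 2.04e-10). The 3 libraries of each assay lay close together and far from the other assay.

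SMAD6 and SMAD7 are inhibitory SMADs, induced by BMP and TGF-beta signalling and acting against it. SMAD7 was at 62.9, 70.0 and 54.0 CPM in 4sU-seq and at 5.51, 5.97 and 5.64 CPM in RNA-seq. SMAD6 was at 99.6, 108 and 89.7 CPM against 10.2, 9.79 and 7.99 CPM. Their log2 ratios were both 3.34. They are the upper end of a list of SMAD, WNT and NF-kB feedback genes, of which 14 of 30 tested members were higher in 4sU-seq, 11 lower and 5 were not called. The list's median ratio was 0.16, near the median over all genes. Its lower end was DKK1, a secreted WNT inhibitor (-1.02), and NFKB2, an NF-kB subunit (-1.004). The median span-matched ratio was 0.33 over 23 members free of overlap.

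The mitotic genes CENPE and ASPM, the nuclear pore gene TPR and the chaperone HSP90AA1 were among those at the other end of the span-matched ranking. The 12 lowest were UFL1 (span-matched -3.17), CENPE (-3.00), TPR (-2.93), MANEA (-2.86), TMTC3 (-2.85), HSP90AA1 (-2.85), CCDC59 (-2.84), TWF1 (-2.83), ALCAM (-2.72), ASPM (-2.69), HSPA4L (-2.66) and CEP290 (-2.65). CENPE, the kinesin of the kinetochore, was at 42.7, 35.1 and 62.1 CPM in 4sU-seq and at 248, 260 and 273 CPM in RNA-seq, with an edgeR log2 difference of -2.47 (SE 0.19, adjusted p 4.65e-07). HSP90AA1, the inducible cytosolic HSP90, was at 623, 595 and 613 CPM in 4sU-seq and at 2732, 3134 and 3270 CPM in RNA-seq. Its edgeR log2 difference was -2.32 (SE 0.10, adjusted p 3.93e-09). ASPM, a spindle pole protein, was at 59.2, 46.8 and 97.3 CPM against 280, 331 and 304 CPM. The third 4sU-seq library was the highest of the 3 in 11 of these 12 genes, CENPE and ASPM among them, and it still lay below every RNA-seq library.

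Genes of the G2 phase and mitosis were low as a list. Of 41 tested members, 35 were lower in 4sU-seq, 1 was higher and 5 were not called, with a median ratio of -1.004. All 41 were at 1 CPM or more in both assays. HMMR (-2.87) and PRC1 (-2.55), both spindle proteins, were the lowest, with 72.0% and 24.7% of their spans free. CDC25C, a phosphatase that activates CDK1, was the one called higher (0.70), and the spindle checkpoint kinase BUB1B stood at -0.26. Of the 31 members free of overlap, 30 lay below the median of their span class, by a median of 1.08 log2 units. DNA replication and G1/S genes were split evenly, with 15 higher, 15 lower and 11 not called of 41 and a median of 0.00. They ran from CDT1 (-1.09), a licensing factor, and RRM2 (-0.94), a ribonucleotide reductase subunit, to POLD3 (1.65), a DNA polymerase delta subunit. Whether the cell cycle lists differ from one another was not tested.

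Housekeeping lists lay below the median of all genes together. Where a list's ends are named here and below, they are called members at 1 CPM or more in both assays. Of 79 tested cytosolic ribosomal proteins, 62 were lower in 4sU-seq, 10 higher and 7 not called, with a median of -0.83. RPL5 (-5.37) has 7.6% of its span free, and 4 members had at most 3 counts in 4sU-seq. RPL21 (1.54) and RPS29 (1.33), whose span contains RN7SL1, were highest. In the 41 members free of overlap the median was -0.79, and the span-matched median was -0.26. On the length-scaled ratio the list lay 0.818 above the median of all genes free of overlap. Ribosomal protein genes are short, with a median free span of 5.1 kb, so they differed less from genes of their own length than from all genes. They have many processed pseudogenes, and reads shared with those copies make each member's value uncertain. Translation factors had 26 lower and 4 higher of 34, with a median of -0.86 and a span-matched median of -0.59 over 19 members. Their ends were EIF2S2 (-2.61), with 16.7% of its span free, and the cap-binding protein EIF4E (1.003).

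Mitochondrial ribosomal proteins had 62 lower and 8 higher of 76 (median -0.86), from MRPL4 (-5.72) and MRPS2 (-2.92), with 4.5% and 32.8% of their spans free, to MRPS18A (1.47), with 53% of its exon bases free. The nuclear-encoded respiratory chain had 59 lower and 9 higher of 77 (median -0.83), with NDUFA5 of complex I at -1.66 and NDUFS4 at 1.10. Their span-matched medians were -0.54 and -0.58, with 35 of 42 and 35 of 40 members free of overlap below their class. Proteasome subunits had 25 lower and 2 higher of 31 (median -0.74). The higher ones were PSMC1 (1.23), with 24.2% of its exon bases free, and PSMB7 (1.10), and PSMC2 was at -3.53 with 30.6% of its span free. Of 18 proteasome genes free of overlap 17 lay below their class. Of 17 glycolysis enzymes 13 were lower and 3 higher (median -0.59), with ALDOA at -0.96 and HK1 at 0.75.

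Endoplasmic reticulum chaperones had 13 lower and 1 higher of 16, with a median of -0.85. DNAJB11 was at -1.66 with 48.5% of its span free. The one higher was the disulfide isomerase PDIA6 (0.41), with 74.8% of its exon bases free. All 9 members free of overlap lay below their span class, by a median of 0.83. Epithelial keratins and cytoskeletal genes had 23 lower and 1 higher of 29 (median -1.17). The one higher was the calcium-dependent membrane binder ANXA2 (0.52). All 12 members free of overlap lay below their class. Lysosome and autophagy genes had 29 lower and 9 higher of 41 (median -0.40), from ATP6V1A, a proton pump subunit, at -1.39 to the E1-like autophagy enzyme ATG7 at 3.02.

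**Figure D4:**
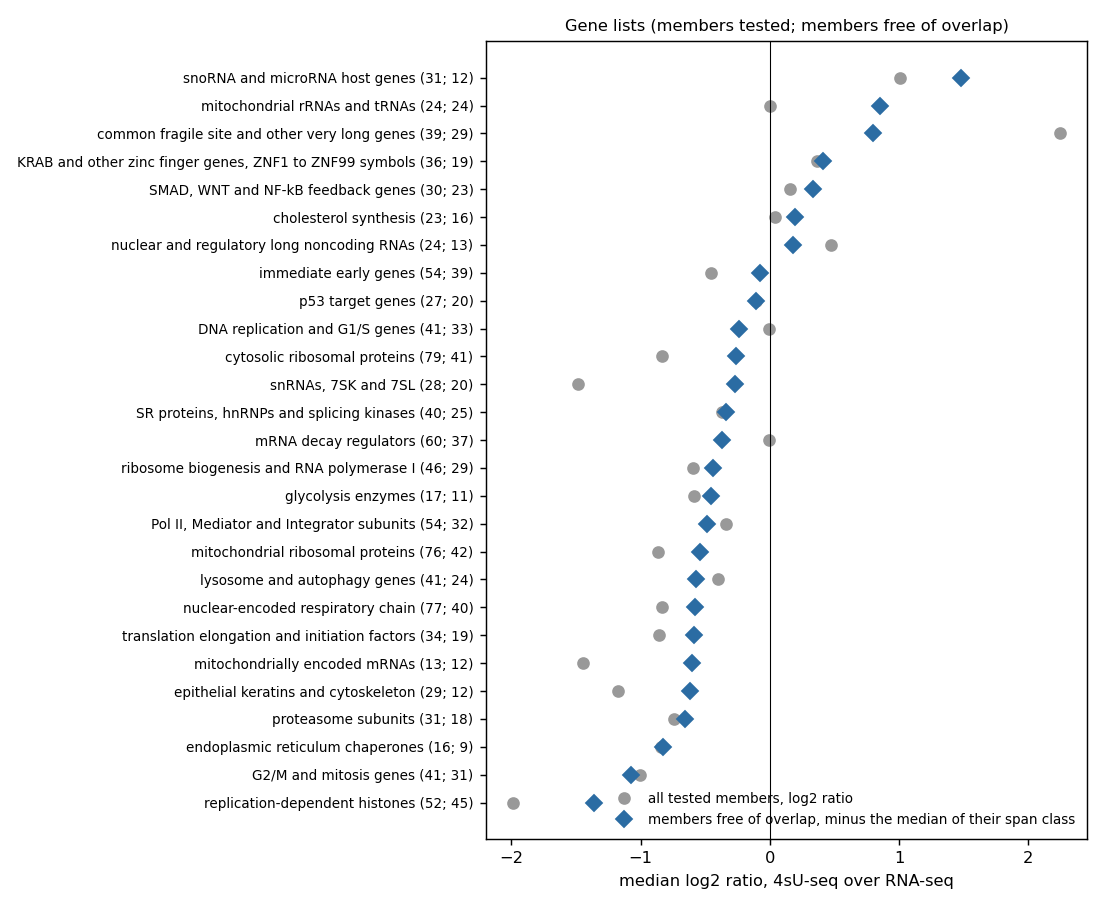
Median log2 ratio of each gene list with at least 9 members free of overlap: grey circles, all tested members; blue diamonds, members free of overlap after subtracting the median of protein-coding genes of the same span class. Histones (-1.36) and G2/M genes (-1.08) are the lowest diamonds and snoRNA and microRNA host genes (1.48) the highest. Very long genes and mRNAs of the mitochondrial genome move toward zero once span is matched.

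Lists of transcription and RNA processing genes had medians from -0.59 to -0.01, the lowest level with that of glycolysis enzymes (-0.59). Their span-matched medians were -0.44 for ribosome biogenesis, -0.49 for polymerase II, -0.34 for SR proteins and -0.37 for mRNA decay. Those of cytosolic ribosomal proteins and endoplasmic reticulum chaperones were -0.26 and -0.83. Ribosome biogenesis and RNA polymerase I genes had 32 lower and 8 higher of 46 (median -0.59), with UBTF, a ribosomal DNA transcription factor, at -3.43 and DDX10 at 1.31. UBTF has 29.1% of its span free. Polymerase II, Mediator and Integrator subunits had 29 lower and 15 higher of 54 (median -0.34), from INTS12 (-2.72), with 22.4% of its span free, and POLR2K (-1.88) to MED27 (3.09). SR proteins, hnRNPs and splicing kinases had 25 lower and 11 higher of 40 (median -0.37), from SRSF1 (-1.70), none of whose span is free, to the kinase SRPK2 (2.03), and on the length-scaled ratio they lay 0.440 above the median. mRNA decay regulators were evenly split in their calls, with 24 lower, 22 higher and 14 not called of 60 and a median of -0.01. Of their 37 members free of overlap, 27 lay below their span class. The ARE-binding protein ZFP36L2 was at -1.59. DIS3L2 (3.07), an exonuclease, and SMG6 (2.51), the endonuclease of nonsense-mediated decay, were highest. SMG6 has 74.6% of its exon bases free.

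Immediate early genes, a list known for short-lived mRNAs, were not uniformly high. Of 54 tested immediate early genes, 38 were lower in 4sU-seq, 12 were higher and 4 were not called, with a median of -0.45. JUN was at 4.76, 5.14 and 3.81 CPM in 4sU-seq and at 20.5, 18.5 and 17.8 CPM in RNA-seq, a ratio of -1.94, and EGR1 stood at -1.87. NR4A2 (1.60) and ATF3 (1.42) were the highest. These genes are short, with a median span of 5.2 kb in the 39 free of overlap, and their span-matched median was -0.07. On the length-scaled ratio the list turned round: it lay 0.998 above the median of all tested genes free of overlap. p53 targets had 13 lower and 10 higher of 27 (median -0.10), from FAS (-1.67) and CCNG1 (-1.47) to SESN2 (1.14). Zinc finger genes with symbols from ZNF1 to ZNF99 had 22 higher and 10 lower of 36 (median 0.36), from ZNF24 (-1.40) among those free of overlap to ZNF83 (2.04). Of their 19 members free of overlap, 2 lay below their span class. Cholesterol synthesis genes had 10 higher and 9 lower of 23 (median 0.04), from IDI1 (-2.90), with 49.6% of its span free, and SC5D (-1.28) to FDFT1 (1.33) and HSD17B7 (1.49). HOX genes had 23 lower and 4 higher of 29 (median -1.07). They sit in dense clusters, only 2 were free of overlap, and HOXA3 (-1.07) had 3.4% of its span free while HOXC13 stood at -0.52. On the length-scaled ratio those 2 lay 2.228 above the median of all genes free of overlap.

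Replication-dependent histones had the lowest median of the lists. Their mRNAs lack introns and a poly(A) tail and end in a conserved stem-loop that binds the protein SLBP. Of 52 tested members 50 were lower in 4sU-seq and 1 was higher, with a median ratio of -1.98. That order depends on how low genes are treated. With 0.1 CPM added in place of 0.5, histones lay at -2.150 against the median of all genes, HOX genes at -2.577 and the list of snRNAs, 7SK and 7SL RNAs at -2.848. Among genes with a mean of at least 50 counts, histones lay at -2.333 and that list at -3.349. HIST1H4K was at 23.8, 28.9 and 22.8 CPM in 4sU-seq and at 269, 253 and 281 CPM in RNA-seq, which is 10.5-fold (adjusted p 4.30e-10 by edgeR). HIST1H4J was at 27.0, 32.8 and 26.3 CPM against 291, 277 and 301 CPM. HIST1H4D was at -3.28. The exception was HIST1H2BE (1.87), whose annotation has 4 exon blocks over 12.60 kb. With no intron to count, both tables count the same bases of most members, and 42 of 45 members free of overlap lay below the median of protein-coding genes of their span class. Histone genes are near-identical copies, so single values are uncertain where reads were shared.

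The stem-loop was searched by name, as the 16-base consensus of the histone stem-loop on the transcript strand, in the 3′ UTR of 1 GENCODE 29 transcript per gene. It was found in 27 of the 32 tested members with such a sequence and in 30 of 14049 tested protein-coding genes (0.214%), 3 of them outside the list. A 3′ UTR sequence was lacking for the other 20 tested members. The sequences below show, in capitals, the stem-loop of a member near the low end, of 2 between and of the one that was higher. HIST1H4J (-3.31) is at chr6:27824454-27824479, HIST1H2AG (-2.39) at chr6:27133510-27133535, HIST1H3E (-0.76) at chr6:26225591-26225616 and HIST1H2BE (1.87) at chr6:26184205-26184230, all on the plus strand.
HIST1H4J: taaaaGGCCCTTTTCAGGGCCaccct
HIST1H2AG: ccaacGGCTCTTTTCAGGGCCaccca
HIST1H3E: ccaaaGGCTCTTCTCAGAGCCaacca
HIST1H2BE: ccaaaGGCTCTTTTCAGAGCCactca
The stem-loop was present at both ends of the list. The median ratio was -1.92 in the 27 members with it and -2.17 in the 25 tested members in which it was not found or no sequence was at hand.

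Protein-coding genes of 1 exon that lie free of overlap also count the same bases in both tables. The 128 such genes at 5 CPM or more in both assays had a median ratio of -1.24. Replication-dependent histones and mitochondrial mRNAs are among them, and no median was taken without these. Over all 246 tested protein-coding genes of 1 exon free of overlap the median was -0.89. Over all tested protein-coding genes of 1 exon at 1 CPM or more, the ends were IER5L (-5.63) and MIEN1 (-4.11), with 9.4% and 15.8% of their spans free, and TIGD1 (1.51) and NANOS1 (1.47), an RNA-binding protein of germ cells.

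Stable small RNAs of RNA polymerase III and snRNAs were low. Of 28 tested members of the list of snRNAs, 7SK and 7SL RNAs, 26 were lower in 4sU-seq and 2 were not called, with a median of -1.48. 12 members had at most 3 counts in 4sU-seq. Over 20 members free of overlap the span-matched median was -0.27, with 13 below the median of protein-coding genes of their span class. Against the median of all genes the list lay at -1.609, and at -1.095 with 2 CPM added. On the length-scaled ratio the 20 members free of overlap lay 1.005 above the median of all genes free of overlap. Their own median was -1.13 with and without that scaling, so only the median they were set against moved. RN7SK, the RNA that holds the elongation factor P-TEFb inactive, was at 128, 160 and 138 CPM in 4sU-seq and at 1524, 1395 and 1555 CPM in RNA-seq (10.5-fold, adjusted p 4.88e-10 by edgeR). RPPH1, the RNA of ribonuclease P, was at 28.9, 35.3 and 26.2 CPM against 465, 542 and 571 CPM. RNU1-1 was at 6.00, 6.47 and 5.33 CPM against 140, 63.9 and 105 CPM, and RNU5E-1 was at -0.50. The lowest genes of types other than protein-coding included RN7SKP203 (-4.93), RNVU1-7 (-4.72), RNU1-27P (-4.30) and RN7SL396P (-4.28), copies of 7SK, U1 and 7SL RNA, and PAX8-AS1 (-4.61), antisense to PAX8, with 6.9% of its span free.

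The U1 copies are printed to show how alike they are, so that each value is uncertain where reads were shared. RNU1-1 (chr1:16514122-16514285, minus strand) and RNU1-27P (chr14:34546714-34546877, plus strand) are identical over all 164 bases. RNVU1-7 (chr1:148038753-148038916, minus strand) differs from RNU1-1 by 1 base, T150C counted from the 5′ end, in capitals below. Sequences are those of GENCODE 29, and how reads with several alignments were counted is not given in the sources used here.
RNU1-1: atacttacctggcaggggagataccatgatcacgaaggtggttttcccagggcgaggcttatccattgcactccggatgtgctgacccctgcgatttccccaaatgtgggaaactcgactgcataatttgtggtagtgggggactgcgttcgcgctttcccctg
RNVU1-7: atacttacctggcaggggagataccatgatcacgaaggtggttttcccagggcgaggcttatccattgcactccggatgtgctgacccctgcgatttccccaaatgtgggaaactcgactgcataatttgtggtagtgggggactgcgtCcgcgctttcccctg

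Long noncoding RNAs were at the other end. Among types with at least 20 tested genes, lincRNAs had 1375 higher and 346 lower of 1946 (median 0.68), processed transcripts 222 higher and 67 lower of 315 (median 1.11) and transcribed unprocessed pseudogenes 253 higher and 79 lower of 354 (median 1.004). Protein-coding genes had 7538 higher and 5386 lower of 15083 (median 0.25). Antisense genes had 1086 higher and 1020 lower of 2284 (median 0.16). Among genes free of overlap the median was 0.88 in 408 antisense genes, 0.79 in 1263 lincRNAs and 0.43 in 9230 protein-coding genes. The sizes depend on how low genes are treated. Against the median of all genes, lincRNAs lay at 0.556, at 0.168 with 2 CPM added, at 1.387 with 0.1 CPM and at 1.433 among genes with a mean of at least 50 counts. Antisense genes lay at 0.034, -0.013, 0.104 and 1.318, and processed transcripts at 0.985, 0.391, 1.774 and 1.537. Types that mostly lie inside other genes were low. Of 316 sense_intronic genes 312 were lower, 311 of them with at most 3 counts over the 4sU-seq libraries. Of 117 snoRNAs 115 were lower (median -1.71), 102 of them at that floor. Of 2041 processed pseudogenes 1798 were lower (median -0.999), and the 859 free of overlap had a median of -0.70.

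Several long noncoding RNAs were among the highest ratios of any type. LINC-PINT, a p53-induced RNA (chromosome 7, 130938963 to 131110176), was at 527, 522 and 547 CPM in 4sU-seq and at 8.71, 12.8 and 9.22 CPM in RNA-seq. That is 49.5-fold (edgeR log2 difference 5.70, SE 0.15, adjusted p 1.81e-10). MIR31HG, the host of miR-31, was at 389, 336 and 695 CPM against 7.96, 11.4 and 8.58 CPM, and the third 4sU-seq library was the highest. LINC00511 was at 635, 687 and 620 CPM against 16.7, 15.5 and 15.8 CPM. C2orf48 (5.89), AC016831.7 (5.72), AC009502.4 (5.63) and a pair of chromosome 21 loci were the highest of types other than protein-coding. The list of nuclear and regulatory long noncoding RNAs had 13 higher and 6 lower of 24 (median 0.47). Its span-matched median was 0.18 over 13 members free of overlap, and 6 of them lay below their span class. NEAT1, the scaffold of paraspeckles, was at 104, 107 and 107 CPM against 37.0, 59.8 and 31.3 CPM. NORAD, a cytoplasmic RNA that binds Pumilio proteins, was at -1.05. SCARNA2 (-3.18) and OTUD6B-AS1 (-3.06) were the lowest of 91 lincRNAs, antisense genes and processed transcripts free of overlap at 5 CPM or more in both assays, whose median was 0.77.

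Host genes of snoRNAs and microRNAs had 22 higher and 8 lower of 31, with a median of 1.005. Their spliced products are known as unstable carriers of intronic RNAs. MIR31HG (5.59), with 59.3% of its exon bases free, and MIRLET7BHG (4.63), host of let-7 microRNAs, were highest, and SNHG8 stood at -0.63. Of the 12 members free of overlap, 1 lay below the median of its span class, and the span-matched median was 1.48.

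The largest ratios were those of CH507-528H12.1 and CH507-513H4.1 (12.05 and 12.04), in the part of the short arm of chromosome 21 where ribosomal DNA units are assembled. CH507-513H4.1 (8197620 to 8227646) was at 37510, 22376 and 22864 CPM in 4sU-seq and at 5.79, 6.74 and 5.55 CPM in RNA-seq. Together they took 4.55% to 7.77% of gene counts in Ctrl 4sU-seq and 0.0011% to 0.0014% in Ctrl RNA-seq. The first 4sU-seq library was the highest for both. MIR3648-1 (8208473 to 8208652), inside the span of CH507-513H4.1, had no count in 4sU-seq and a mean of 3414 CPM in RNA-seq. Part of the RNA-seq counts of this stretch thus fell to another gene ID, and the ratios of the pair describe counts. The labels do not say whether rRNA was removed. CH507-513H4.3, a locus of 0.92 kb, was also higher in RNA-seq, at 0.94, 2.77 and 2.02 CPM in 4sU-seq and at 3694, 218 and 3446 CPM in RNA-seq. The second RNA-seq library also stood apart for mitochondrial rRNA: MT-RNR1 was at 202, 4.98 and 185 CPM in RNA-seq and at 2.22, 0.86 and 6.33 CPM in 4sU-seq, and the groups overlapped. Without that library the edgeR log2 difference was -5.93 for MT-RNR1 (adjusted p 4.12e-06), -5.02 for MT-RNR2 (adjusted p 4.91e-07) and -10.88 for CH507-513H4.3 (adjusted p 1.30e-09), against -5.37, -4.47 and -10.35 with it.

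The mitochondrial genome, transcribed by its own polymerase as long precursors that are cut into mRNAs, rRNAs and tRNAs, took 0.692% to 0.848% of 4sU-seq counts, against 1.71% to 1.91% of those from RNA-seq. All 13 mitochondrial mRNAs were lower in 4sU-seq, with a median ratio of -1.45. All 12 members free of overlap lay below the median of their span class, with a span-matched median of -0.60. Other ways of taking length into account turned the direction. On the length-scaled ratio the list lay 0.673 above the median of all genes free of overlap. The members' own median was -1.46 with and without that scaling, so only the median they were set against moved. With the trend of the difference over span removed, each of the 13 lay above the median of all genes, by 0.707 (MT-ND4) to 2.171 (MT-ATP8). The narrowest difference was that of MT-CO1, at 1840, 2445 and 1949 CPM in 4sU-seq and at 3974, 3851 and 3439 CPM in RNA-seq (-0.85). The widest was that of MT-ND4L (-1.81). Complex I subunits otherwise stood at -1.45 (MT-ND1), -1.49 (MT-ND2), -1.53 (MT-ND3), -1.50 (MT-ND4) and -0.98 (MT-ND5). MT-ND6, the one mRNA of the light strand's own transcript, was at -1.03. The other oxidase subunits MT-CO2 and MT-CO3 were at -1.54 and -1.46, cytochrome b (MT-CYB) at -1.42 and the ATP synthase subunits MT-ATP6 and MT-ATP8 at -1.37 and -1.25. No 4sU-seq library overlapped an RNA-seq library for any of the 13. The 24 mitochondrial rRNAs and tRNAs had 7 higher, 9 lower and 8 not called (median 0.00), with MT-TD (1.03) and MT-TS1 (0.90) highest.

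Sequence features were read in 7380 protein-coding genes free of overlap at 1 CPM or more in both assays. When they were split into 5 groups of equal size by the span-matched ratio, the median G+C content of the 3′ UTR was 35.4% in the lowest group, 40.8%, 42.9% and 44.6% in the next, and 45.2% in the highest. ATTTA, the core of AU-rich elements, which are known as destabilising signals, was densest in the lowest group, at a median of 2.79 matches per kb of 3′ UTR, and thinnest in the highest, at 1.41 per kb. ATTTA holds only A and T, and the lowest group is also the poorest in G+C. The longer element TTATTTATT was found in 11.6% of the lowest group, 9.2% of the highest and 9.4% of all. The lowest group had the longest 3′ UTRs, with a median of 1570 bases against 1107 in the highest. Neither motif was compared at matched base composition or length, so enrichment of such elements was not tested. Across 7286 genes with a 3′ UTR, rho between G+C content and the span-matched ratio was 0.26, and it lay between 0.19 and 0.36 with each 4sU-seq library in turn. With the ratio itself it was 0.074, and with the length-scaled ratio 0.439. For the density of ATTTA rho was -0.032 with the ratio, -0.175 with the span-matched ratio and -0.283 with the length-scaled ratio. Within span classes, rho between G+C content and the ratio ran from 0.16 (3 to 10 kb) to 0.44 (over 300 kb). The share of promoters with TATAAA in the 250 bases before the start was 4.8% in the lowest group and 3.0% in the highest. The share with C at the start followed by 4 pyrimidines, as in mRNAs of the translation machinery, was 5.7% and 4.9%. Promoters came from RefSeq (GRCh38.p14) for 6079 of the genes and 3′ UTRs from GENCODE 29, searched on the transcript strand.

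**Figure D5:**
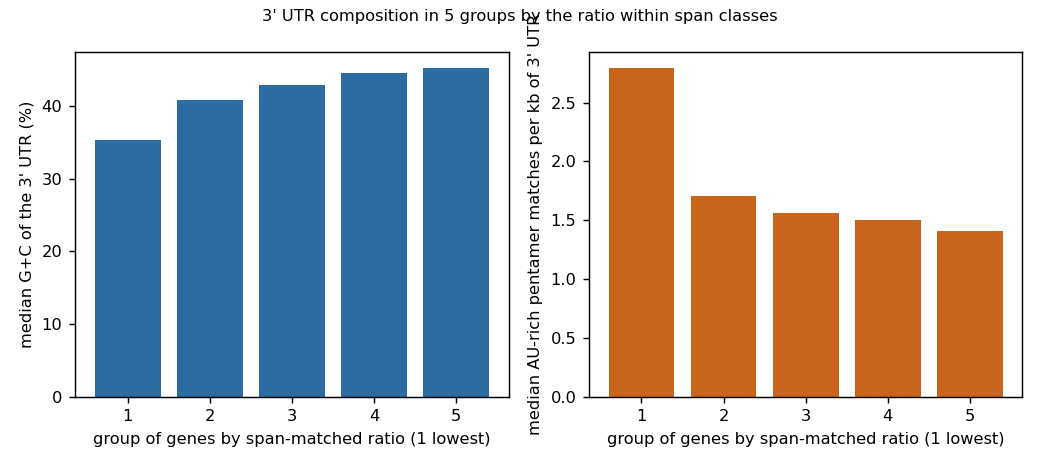
Composition of the 3′ UTR in 5 equal groups of protein-coding genes free of overlap, ordered by span-matched ratio from 1 (lowest) to 5 (highest). Median G+C content (left, percent) is 35.4% in group 1 and 45.2% in group 5, and the median density of ATTTA (right, matches per kb) falls from 2.79 to 1.41.

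The same ratio computed in the PPM1G KO libraries, which share none of the Ctrl libraries, gave a similar order of genes. Spearman's rho between the ratios was 0.96 across 12386 genes at 1 CPM or more in both Ctrl assays, and 11401 of them lay on the same side of each median. Ctrl and KO libraries stand in the same 2 tables, so any effect of how genes were counted is shared. The rho was not limited to genes free of overlap or matched for span. In KO cells, too, the median of protein-coding genes free of overlap ran from -0.92 under 3 kb to 1.99 over 300 kb. The interaction of genotype and assay was called by edgeR in 292 of 26664 genes. The 12 highest and 12 lowest protein-coding genes of the span-matched ranking kept their side of the median in KO cells. They were picked as extremes in Ctrl, with ratios of 2.79 to 4.71 and -2.77 to -1.67, so crossing it would have taken a large change. The median ratio of G2/M genes was -1.11 there and that of histones -1.98. Other lists moved more: cholesterol synthesis genes from 0.04 in Ctrl to -0.64 in KO cells, immediate early genes from -0.45 to 0.06, with 39 of 54 on the same side of the median, and snoRNA and microRNA host genes from 1.005 to 0.42. These differences between lists were not tested.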

How the data were processed

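The authors deposited 2 tables of gene counts, whole numbers per gene and library, 1 per assay. The submitters' processing notes name FastQC 0.11.2, HISAT2 2.1.0, SAMtools 1.3, featureCounts and the hg38 build, with no account of their use; which features were counted, on which strand and in which annotation is not given there. The 92 ERCC species and a repeated header line were left out of gene counts. Genes kept by filterByExpr (minimum count 10) were tested over the 6 Ctrl libraries with the two-sided quasi-likelihood F test of edgeR 4.0.16 (R 4.3.3), TMM within each assay and Benjamini-Hochberg adjustment at 0.05. In counts simulated for this comparison over 23830 genes, 50% of genes planted at 1.5-fold, 80% at 2-fold, 98% at 4-fold and 100% at 8-fold were called. So were 9 genes left unchanged. Every gene was drawn with 1 common dispersion (0.0131), and most were left unchanged, unlike in these data. The shares therefore do not carry over to the calls above. The log2 ratio used CPM plus 0.5. GENCODE 29 gave spans, exons and 3′ UTRs for 52890 gene IDs (94.3%); whether the authors used that release is unknown. Overlap was counted among those IDs on either strand. Span classes were bounded at 3, 10, 30, 100 and 300 kb.

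Members and gene lists were chosen with earlier results of these data known. Genes named are, at 1 CPM or more in each assay and called, the 12 highest and lowest protein-coding genes, the 6 highest and lowest of other types (groups not overlapping for both), some of the 2 highest and 2 lowest of each list, the mitochondrial mRNAs, PPM1G and the ends of genes of 1 exon; span-matched extremes, examples of overlap and others were chosen after their values were seen. Replicates of an assay differed beyond sampling noise (mean chi-square per gene 12.0 to 92.9 between pairs). Alternatives were other scalings, filters and pseudocounts, DESeq2 1.42.0, all 12 libraries, a replicate block, each library left out, and, added after seeing the data, genes free of overlap and length scaling. Some genes that these rules pick are not reported here.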

Additional observations from a re-analysis of the deposited data

Results flagged for a closer look

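Some genes named above had a ratio that differed between KO and Ctrl cells, by the interaction of genotype and assay in edgeR over 26664 genes. Values are log2 differences of the 4sU-seq over RNA-seq difference, KO minus Ctrl. The widest were those of the immediate early genes EGR1 (3.25, adjusted p 7.49e-06), whose ratio was -1.87 in Ctrl and 1.31 in KO cells, and JUN (2.63, adjusted p 0.000469), with -1.94 and 0.56. ATF3 differed by 0.82 (adjusted p 0.0255) and TRIM59 by 0.99 (adjusted p 0.0334). Lower in KO cells were the ratios of the sterol synthesis genes IDI1 (-1.54, adjusted p 0.00538) and FDFT1 (-0.99, adjusted p 0.0229), PRELID3A (-1.15, adjusted p 0.00675), C2orf48 (-1.07, adjusted p 0.0101) and CCT6B (-1.07, adjusted p 0.0249). So were those of LINC00511 (-0.87, adjusted p 0.00519), ZNF83 (-0.86, adjusted p 0.0164), PTPRN2 (-0.79, adjusted p 0.0229) and RPL21 (-0.67, adjusted p 0.0451).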

How the results depend on the processing

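Of 20954 genes called, leaving out 1 library at a time gave 19675 to 21748, with 10257 to 11734 higher, 9418 to 10273 lower and 14441 to 16384 past 2-fold (15135 with all). ERCC scaling moved the median of all genes to a log2 value of 4.00 and gave 19288 higher and 4415 lower (81.4% of calls higher against 53%), with 23610 past 2-fold, so absolute direction depends on the scaling. A mean of at least 50 counts gave 6032 lower and 8898 past 2-fold. Among genes free of overlap 10747 were called, 7179 higher and 3568 lower (66.8% higher), with 6783 past 2-fold. Against 10838 genes over 1 log2 unit from the median, there were 14561 with 0.1 CPM added, 6936 with 2 CPM added, 4684 among genes free of overlap and 6483 with length scaling; leaving out a library gave 10711 to 11087. Spearman's correlation of the ratio with span was 0.51 over all tested protein-coding genes, 0.48 to 0.53 without 1 library and -0.56 with length scaling. Lists below the median numbered 23 of 28 (22 to 23 without 1 library), and types 9 (8 to 10). The protein-coding type lay at -0.082 against the median of genes with a mean of at least 50 counts. With length scaling these lists changed side: mitochondrial mRNAs (0.67), ribosomal proteins (0.82), immediate early genes (0.998), HOX genes (2.23), SR proteins and hnRNPs (0.44), snRNAs (1.005) and very long genes (-2.21). With the span trend removed, these named genes changed side of the median: MT-ND1 (1.06), MT-ND2 (0.95), MT-ND3 (1.62), MT-ND4 (0.71), MT-ND4L (1.43), MT-ND5 (0.96), MT-ND6 (1.91), MT-CO1 (1.24), MT-CO2 (1.23), MT-CO3 (1.20), MT-ATP6 (1.40), MT-ATP8 (2.17), MT-CYB (0.95), NDUFS4 (-0.14), HK1 (-0.53), ANXA2 (-0.20), PDIA6 (-0.30), DDX10 (-0.81), SRPK2 (-0.12), NRG1 (-2.83), RNU5E-1 (3.12), SNHG8 (1.74), HIST1H3E (0.434) and DKK1 (0.063); the cause was not tested. Same-numbered libraries of the assays are not tied by the labels, and their deviations correlated at 0.18, -0.25 and 0.16; a replicate block gave 20806 calls.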
